A study of Mus musculus with 16 samples.

Results

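The transcripts described are 10 markers of dendritic cell subsets, chosen by gene symbol from a table of 18929 genes measured in 16 B16F10 melanomas. B16F10, a melanoma line of mouse origin, was injected on the right side of the abdomen in C57BL/6 females aged 7 to 8 weeks, and treatment began at a tumor volume of about 50 mm3 and lasted 9 to 11 days. There were 4 groups of 4 tumors: vehicle (corn oil with control IgG2a), anti-PD1 (a blocking antibody to the T-cell receptor PD1), α-KG (α-ketoglutarate, a metabolite of the citric acid cycle, given at 100 mg/kg), and α-KG + anti-PD1, also called the combination. All groups carried the same cell line in the same mouse strain, and RNA was taken from whole tumors, so that tumor cells, leukocytes and stroma contributed to each value. The unit is FPKM, the fragments of a transcript scaled to its length and to the size of the library, which allows levels of different genes to be compared.

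Dendritic cells take up antigen, carry it to lymph nodes and show it to T cells. Conventional dendritic cells of type 1 (cDC1) are best known for passing antigen of dying cells to CD8+ T cells, and those of type 2 (cDC2) for stimulating CD4+ T cells. After activation, both types become mature dendritic cells, which raise chemokines, costimulatory molecules and migration genes, and plasmacytoid dendritic cells (pDC) are known for type I interferon. Xcr1, Clec9a and Batf3 mark cDC1, Cd209a marks cDC2, Fscn1, Ccl22 and Ccl17 mark the mature state, Siglech marks pDC, and Flt3 and Itgax are shared by several subsets. None of these genes belongs to dendritic cells alone: Itgax is made by many macrophages, Ccl22 and Ccl17 by activated macrophages, Batf3 by T cells, Siglech by microglia, and Fscn1 by many tumor cells.

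All 10 markers were listed. Of these, 8 reached 0.5 FPKM in at least 4 tumors, which was the limit for testing, and all 8 did so without counting the α-KG + anti-PD1 tumors. Clec9a and Ccl17 stayed below the limit, were at 0 in 3 and 4 tumors respectively, and are given by their values. Group differences are of log2(FPKM + 1), in log2 units, and were tested with limma over 12850 genes, with p adjusted over all of them by the Benjamini-Hochberg method. The exact permutation test of 4 against 4 tumors cannot give a two-sided p below 0.029, which is reached when 2 groups do not overlap. Of 60 such tests, 10 markers in 6 comparisons, 16 reached that value, and the adjusted p over these 60 tests was 0.107 at its lowest. The share of all genes without overlap in these comparisons is not given here. In the combination against vehicle, limma called 34.9% of all genes tested higher.

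The promoter windows of 5 markers are shown because they held a match to a motif of a factor family known in dendritic cells. The windows run from 250 bases before to 50 bases after a RefSeq start site on GRCm38.p6 (mm10, the build named in the submitters' processing notes), in the direction of transcription, and capitals mark the match. The Clec9a window was chr6:129408612-129408911 on the plus strand, the Batf3 window chr1:191098164-191098463 on the plus strand, the Itgax window chr7:128129300-128129599 on the plus strand, the Ccl17 window chr8:94810203-94810502 on the plus strand and the Siglech window chr7:55767934-55768233 on the plus strand. The Ccl17 window lies wholly inside the gene range given below, which starts at 94809380, so its start site is an inner one. For Itgax and Siglech the start site used lies slightly inside the range.
Clec9a: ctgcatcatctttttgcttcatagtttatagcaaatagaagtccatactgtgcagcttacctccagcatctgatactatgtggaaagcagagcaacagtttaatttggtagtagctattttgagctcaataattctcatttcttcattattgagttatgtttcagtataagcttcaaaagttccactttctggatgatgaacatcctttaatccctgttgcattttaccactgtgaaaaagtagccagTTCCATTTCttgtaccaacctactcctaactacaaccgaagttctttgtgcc
Batf3: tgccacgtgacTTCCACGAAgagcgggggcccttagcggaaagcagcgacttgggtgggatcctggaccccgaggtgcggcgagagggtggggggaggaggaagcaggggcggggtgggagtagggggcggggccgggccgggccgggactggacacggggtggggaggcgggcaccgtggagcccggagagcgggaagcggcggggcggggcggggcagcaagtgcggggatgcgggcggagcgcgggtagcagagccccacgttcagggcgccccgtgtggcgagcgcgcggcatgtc
Itgax: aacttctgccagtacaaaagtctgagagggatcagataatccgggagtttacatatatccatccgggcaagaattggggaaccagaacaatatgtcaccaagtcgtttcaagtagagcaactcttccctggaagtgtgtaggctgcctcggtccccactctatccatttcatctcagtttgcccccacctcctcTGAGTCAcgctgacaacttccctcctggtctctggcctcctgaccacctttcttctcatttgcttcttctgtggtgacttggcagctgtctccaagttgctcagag
Ccl17: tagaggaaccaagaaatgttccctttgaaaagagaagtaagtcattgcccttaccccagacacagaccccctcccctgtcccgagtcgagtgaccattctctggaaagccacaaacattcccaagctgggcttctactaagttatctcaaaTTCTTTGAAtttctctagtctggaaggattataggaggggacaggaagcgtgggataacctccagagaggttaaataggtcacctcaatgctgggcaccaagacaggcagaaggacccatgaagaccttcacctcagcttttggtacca
Siglech: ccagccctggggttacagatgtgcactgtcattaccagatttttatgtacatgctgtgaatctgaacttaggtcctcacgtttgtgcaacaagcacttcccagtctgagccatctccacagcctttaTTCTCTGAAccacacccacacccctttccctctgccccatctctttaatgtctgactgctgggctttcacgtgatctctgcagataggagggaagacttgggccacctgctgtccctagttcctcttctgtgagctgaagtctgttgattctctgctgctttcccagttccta
The match in Clec9a was to the IRF motif GAAANNGAA on the minus strand, that in Itgax to the AP-1 and BATF motif TGANTCA, and those in Batf3, Ccl17 and Siglech to the STAT motif TTCNNNGAA, which reads the same on both strands. No window held the PU.1 motif GAGGAAGT or the NF-kB motif GGGANTTTC. Of all 32851 windows of this length, 7.81% held the AP-1 and BATF motif, 8.56% the IRF motif, 3.2% the PU.1 motif, 1.11% the NF-kB motif and 8.3% the STAT motif, against 1, 1, 0, 0 and 3 of the 10 marker windows. These matches are of letters only, on both strands and with no test.

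The plot of FPKM by tumor shows that 2 tumors of the α-KG + anti-PD1 group, numbers 1 and 3, stood apart. In 9 of the 10 markers both lay above tumors 2 and 4 of that group, and in Fscn1 both lay below. Ptprc, the pan-leukocyte gene of CD45, was at 37.63, 14.18, 35.45 and 9.34 FPKM in these 4 tumors. The summed level of 10 pan-leukocyte genes was 45.9 to 181.7 FPKM with vehicle, 190.0 to 362.7 with anti-PD1, 520.4 to 566.4 with α-KG and 279.1 to 1025 with the combination. In bulk tumors, fewer cells of a type and less RNA per cell cannot be told apart.

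**Figure D1:**
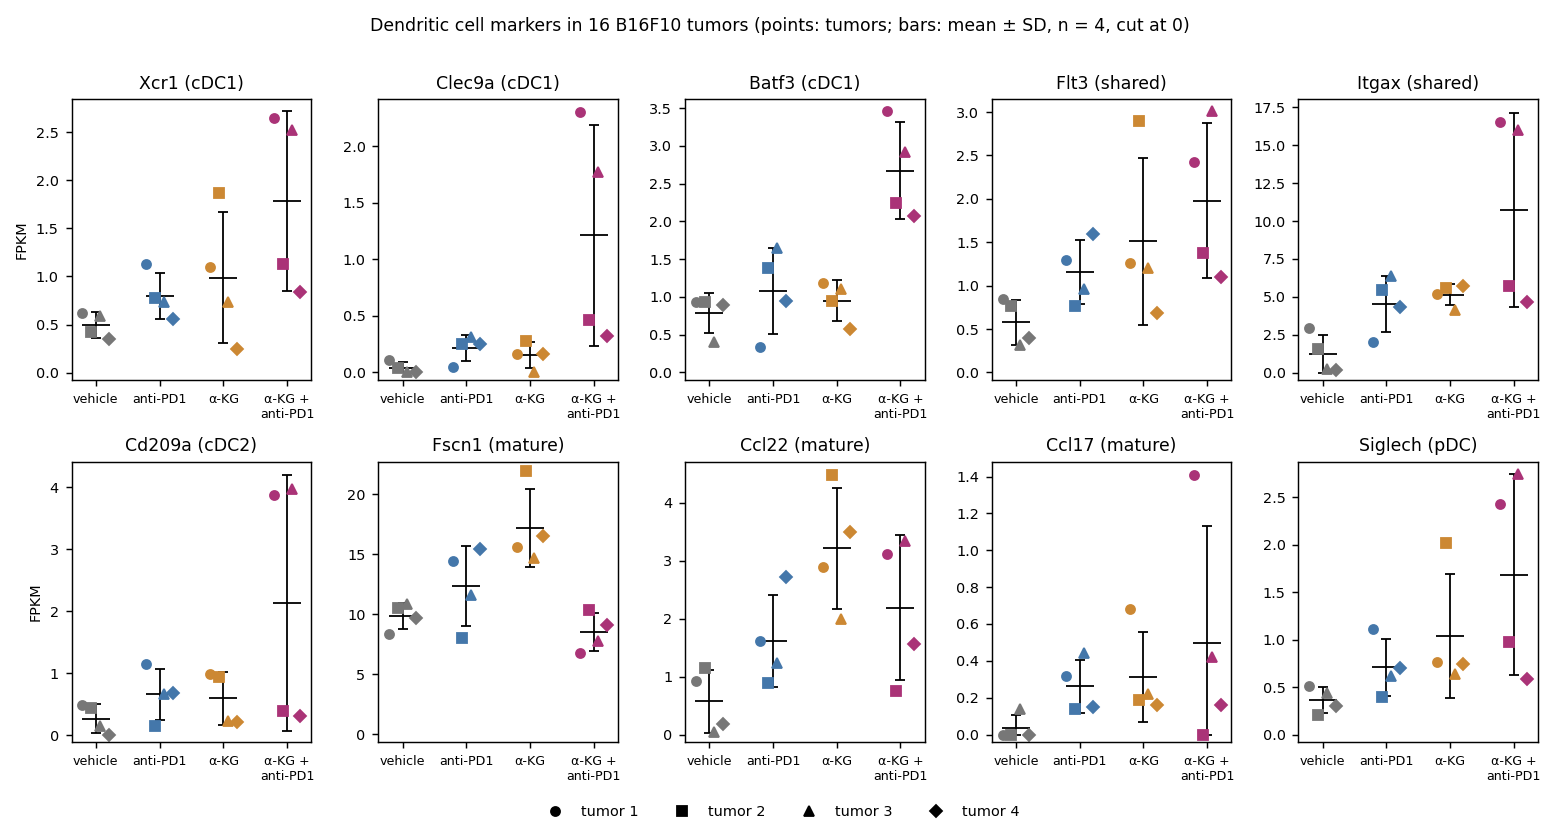
FPKM of the 10 dendritic cell markers in each tumor, by group, with the subset in brackets. Symbols give the tumor number within its group, and bars the mean ± SD (n = 4), cut at 0. Batf3 and Clec9a of all 4 α-KG + anti-PD1 tumors lie above every other tumor, the mean of Fscn1 is highest with α-KG, and tumors 1 and 3 of the α-KG + anti-PD1 group lead it in every marker but Fscn1.

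All 3 cDC1 markers were higher in every α-KG + anti-PD1 tumor than in every vehicle tumor. The share of all genes separated in this way is not given here. By limma, a different measure, 34.9% of all genes tested were called higher in this comparison. Batf3 (chromosome 1, 191098414 to 191108943), a leucine zipper transcription factor required for cDC1 development, was at 0.93, 0.93, 0.4 and 0.89 FPKM in vehicle, at 0.34, 1.38, 1.65 and 0.94 with anti-PD1, at 1.19, 0.95, 1.1 and 0.57 with α-KG and at 3.46, 2.24, 2.92 and 2.07 with the combination. All 4 tumors of the last group lay above the other 12. The mean was 2.67 ± 0.641 FPKM (SD, n = 4) there, against 0.788 ± 0.259 in vehicle. The limma difference was 1.04 (SE 0.20, adjusted p = 0.00104) from vehicle, 0.85 (SE 0.20, adjusted p = 0.0175) from anti-PD1 and 0.91 (SE 0.20, adjusted p = 0.00304) from α-KG. Batf3 was the only marker tested that was higher in α-KG + anti-PD1 than in each of the other groups, and the call against anti-PD1 was lost without tumor 1 (adjusted p = 0.0632) or tumor 4 (0.0567) of the anti-PD1 group or without tumor 3 (0.0571) of the combination. It was also lost after quantile normalization (adjusted p = 0.0514, limma) and with the 2 groups fitted alone (0.0665).

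Clec9a (chromosome 6, 129408862 to 129424764) encodes a lectin receptor that senses actin filaments exposed by dead cells. It was at 0.11, 0.04, 0 and 0 FPKM in vehicle, at 0.05, 0.25, 0.31 and 0.25 with anti-PD1, at 0.16, 0.28, 0 and 0.16 with α-KG and at 2.3, 0.46, 1.77 and 0.32 with the combination. The last group again did not overlap the others (exact permutation test, p = 0.029 for each), although its tumor 4 exceeded the highest anti-PD1 tumor by little. In a limma fit without the limit on low values, Clec9a rose by 0.98 (SE 0.23, adjusted p = 0.0052) from vehicle and by 0.84 (SE 0.23, adjusted p = 0.0149) from α-KG, and the difference from anti-PD1 was 0.76 (SE 0.23, adjusted p = 0.0532).

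Xcr1 (chromosome 9, 123852315 to 123862029), the receptor by which cDC1 follow the chemokine Xcl1, was at 0.62, 0.42, 0.59 and 0.35 FPKM in vehicle, at 1.13, 0.78, 0.73 and 0.56 with anti-PD1, at 1.1, 1.87, 0.73 and 0.25 with α-KG and at 2.65, 1.13, 2.52 and 0.84 with the combination. Vehicle and α-KG + anti-PD1 did not overlap, whereas each single treatment overlapped both. The limma difference between α-KG + anti-PD1 and vehicle was 0.84 (SE 0.24, adjusted p = 0.0118). It was 0.57 (SE 0.24, adjusted p = 0.11) against anti-PD1 and 0.49 (SE 0.24, adjusted p = 0.124) against α-KG.

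The 2 markers shared between subsets rose with the combination, and 1 of them also with α-KG alone. Itgax (chromosome 7, 128129526 to 128150657), the CD11c integrin of most dendritic cells, was at 2.92, 1.54, 0.23 and 0.17 FPKM in vehicle, at 2, 5.43, 6.35 and 4.34 with anti-PD1, at 5.18, 5.56, 4.16 and 5.71 with α-KG and at 16.53, 5.74, 16.03 and 4.65 with the combination. Tumors 2 and 4 of the combination lay within the range of the anti-PD1 tumors. The difference from vehicle was 2.41 (SE 0.42, adjusted p = 0.000686, limma) for α-KG + anti-PD1, 1.65 (SE 0.42, adjusted p = 0.015) for α-KG and 1.43 (SE 0.42, adjusted p = 0.109) for anti-PD1. The α-KG call was lost without vehicle tumor 3 (adjusted p = 0.0576) or 4 (0.0579), and anti-PD1 passed without vehicle tumor 1 (difference 1.77, adjusted p = 0.0234).

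Flt3 (chromosome 5, 147330741 to 147400489), the receptor of the dendritic cell growth factor Flt3l, was at 0.84, 0.76, 0.31 and 0.4 FPKM in vehicle, at 1.3, 0.76, 0.96 and 1.6 with anti-PD1, at 1.26, 2.9, 1.2 and 0.68 with α-KG and at 2.43, 1.38, 3.01 and 1.1 with the combination. The combination lay above vehicle in every tumor and overlapped both single treatments. Its difference from vehicle was 0.88 (SE 0.25, adjusted p = 0.00943, limma), and that of α-KG was 0.61 (SE 0.25, adjusted p = 0.104). Leaving out α-KG tumor 4, the lowest of its group, brought the latter to 0.78 (adjusted p = 0.0482).

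Cd209a (chromosome 8, 3743395 to 3748984), a lectin of the DC-SIGN family on cDC2 and on monocyte-derived dendritic cells, varied widely within the combination. It was at 0.48, 0.43, 0.14 and 0 FPKM in vehicle, at 1.15, 0.14, 0.67 and 0.68 with anti-PD1, at 0.99, 0.94, 0.22 and 0.21 with α-KG and at 3.88, 0.38, 3.97 and 0.3 with the combination. Tumors 2 and 4 of the combination lay below the higher 2 vehicle tumors. The difference between α-KG + anti-PD1 and vehicle was 1.04 (SE 0.39, adjusted p = 0.0415, limma). That call was lost without vehicle tumor 2, 3 or 4, anti-PD1 tumor 3 or 4, or combination tumor 1 or 3, where adjusted p ran from 0.0505 to 0.145. It was also lost without the limit on low values (adjusted p = 0.0635, limma) and with the 2 groups fitted alone (0.103).

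Fscn1 (chromosome 5, 142960355 to 142973189), an actin-bundling protein of the long processes of mature dendritic cells, was at 8.36, 10.5, 10.88 and 9.73 FPKM in vehicle, at 14.45, 8.02, 11.64 and 15.41 with anti-PD1, at 15.57, 21.95, 14.72 and 16.52 with α-KG and at 6.81, 10.4, 7.75 and 9.11 with the combination. The α-KG tumors lay above all vehicle and all α-KG + anti-PD1 tumors. Fscn1 rose by 0.73 (SE 0.18, adjusted p = 0.0102, limma) with α-KG alone and fell by 0.93 (SE 0.18, adjusted p = 0.00146) from α-KG to α-KG + anti-PD1. The interaction, which is the effect of adding anti-PD1 to α-KG minus the effect of anti-PD1 on vehicle, was -1.20 (SE 0.25, adjusted p = 0.00824), where the median of all genes tested was 0.15. The difference between α-KG + anti-PD1 and vehicle was -0.20 (SE 0.18, adjusted p = 0.368), and it passed with tumor medians set equal (-0.51, adjusted p = 0.0491). In vehicle tumors 3 and 4, where Itgax was at 0.23 and 0.17 FPKM, Fscn1 was at 10.88 and 9.73 FPKM, and the summed pan-leukocyte level was 45.87 and 46.61 FPKM, the lowest of the 16 tumors.

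Ccl22 (chromosome 8, 94745684 to 94751388) and Ccl17 (chromosome 8, 94809380 to 94812038) encode chemokines that attract T cells through the receptor Ccr4, and lie close together. Ccl22 was at 0.92, 1.15, 0.04 and 0.19 FPKM in vehicle, at 1.62, 0.89, 1.24 and 2.72 with anti-PD1, at 2.9, 4.49, 2 and 3.49 with α-KG and at 3.11, 0.75, 3.35 and 1.56 with the combination. All α-KG tumors lay above all vehicle tumors, while the combination overlapped every group. The difference from vehicle was 1.45 (SE 0.31, adjusted p = 0.00484, limma) for α-KG and 0.99 (SE 0.31, adjusted p = 0.0178) for α-KG + anti-PD1. The latter was lost without vehicle tumor 3 (adjusted p = 0.0655) or 4 (0.058) or without combination tumor 1 (0.054) or 3 (0.0621). The interaction of Ccl22 was -1.22 (SE 0.44, adjusted p = 0.0838) and did not pass.

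Ccl17 was near the lower end of the scale in every group. It was at 0, 0, 0.14 and 0 FPKM in vehicle, at 0.32, 0.14, 0.44 and 0.15 with anti-PD1, at 0.68, 0.19, 0.22 and 0.16 with α-KG and at 1.41, 0, 0.42 and 0.16 with the combination. In 5 of the 12 tumors above 0 the value was between 0.14 and 0.16, and 1 combination tumor had the highest value and another was at 0. Vehicle and α-KG did not overlap (exact permutation test, p = 0.029), and in the limma fit without the limit on low values the difference between them was 0.33 (SE 0.21, adjusted p = 0.383).

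Siglech (chromosome 7, 55768154 to 55779448), a sialic acid-binding receptor of mouse pDC, was at 0.51, 0.21, 0.44 and 0.3 FPKM in vehicle, at 1.11, 0.4, 0.62 and 0.7 with anti-PD1, at 0.76, 2.02, 0.64 and 0.74 with α-KG and at 2.43, 0.98, 2.75 and 0.59 with the combination. Neither α-KG nor α-KG + anti-PD1 overlapped vehicle. The difference from vehicle was 0.89 (SE 0.25, adjusted p = 0.0107, limma) for α-KG + anti-PD1 and 0.54 (SE 0.25, adjusted p = 0.167) for α-KG, so that only the first passed the test.

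In all, 7 of the 8 markers tested were higher in α-KG + anti-PD1 than in vehicle tumors, in a comparison where 34.9% of all genes tested were called higher. The split of calls over all genes depended on scaling, with 4479 higher and 1348 lower as deposited, 2241 and 3994 after quantile normalization, 2197 and 4803 with tumor medians set equal, and 6294 and 250 with FPKM sums set equal. The median of all genes shifted from 0.15 to -0.11, -0.16 and 0.34. The number of markers called was 2 after quantile normalization and 3 with medians set equal, and Itgax and Batf3 were called higher under both. The third with medians set equal was Fscn1, called lower (-0.51, adjusted p = 0.0491, limma). Without combination tumors 1 and 3, a step chosen after the values were seen, 2 markers were called, again Itgax and Batf3. Xcr1 was then 0.41 (adjusted p = 0.208), Flt3 0.52 (0.149), Siglech 0.38 (0.208), Ccl22 0.49 (0.264) and Cd209a 0.10 (0.789).

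With α-KG alone, 3 markers were higher than in vehicle (Ccl22, Itgax and Fscn1), where 8.4% of all genes were called higher. With anti-PD1 alone, 0 of the 8 passed limma's test, with 0.747% of all genes called in either direction, and 2 (Ccl22 and Itgax) had an unadjusted p under 0.05. Between α-KG and anti-PD1, 0 of the 8 passed, with 3.16% of all genes called in either direction, and 2 (Ccl22 and Fscn1) had an unadjusted p under 0.05. From anti-PD1 to α-KG + anti-PD1, 1 marker was higher (Batf3), where 14.2% of all genes were. From α-KG to α-KG + anti-PD1, 1 marker was higher (Batf3) and 1 lower (Fscn1), against 31.8% of all genes called higher and 6.47% lower. The interaction was called lower for 1 marker, Fscn1, and for 3.13% of all genes. The same 4 vehicle tumors enter each comparison with vehicle.

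**Figure D2:**
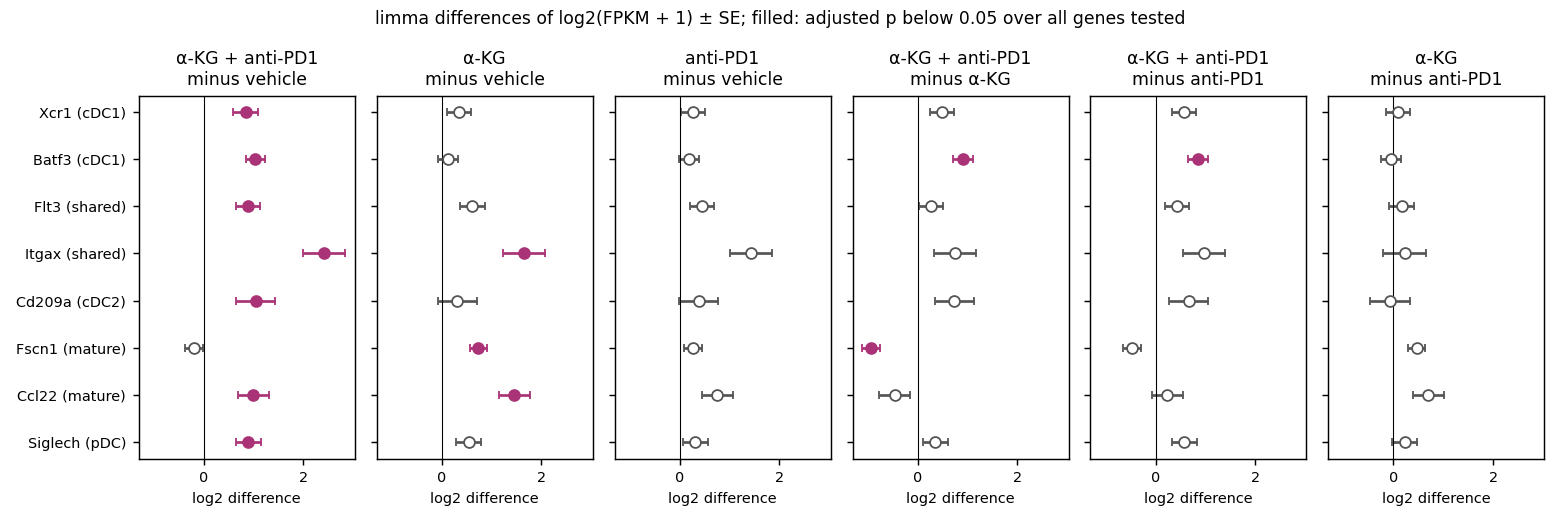
Differences of log2(FPKM + 1) between groups for the 8 markers tested, with the standard error from limma. Filled points passed at an adjusted p below 0.05 over all genes tested: 7 markers in α-KG + anti-PD1 minus vehicle, 3 in α-KG minus vehicle, Batf3 and Fscn1 in α-KG + anti-PD1 minus α-KG, and Batf3 in α-KG + anti-PD1 minus anti-PD1.

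The subsets were compared directly through 1 gene each, Xcr1 for cDC1, Cd209a for cDC2, Ccl22 for the mature state and Siglech for pDC. For each of the 6 pairs of genes, the difference of their log2 values was compared between groups in 6 comparisons, 36 in all. Ccl22 rose more than Xcr1 by 1.11, more than Cd209a by 1.15 and more than Siglech by 0.92 from vehicle to α-KG, each without overlap of the tumors (exact permutation test, p = 0.029). From α-KG to α-KG + anti-PD1, the difference moved toward Xcr1 by 0.95 and toward Siglech by 0.82, each again at p = 0.029 in the exact permutation test. After adjustment over the 36 comparisons none passed (smallest adjusted p = 0.206), and 5 had an unadjusted p under 0.05. Among Xcr1, Cd209a and Siglech no difference reached an unadjusted p under 0.05. All 5 thus involved Ccl22, which stands here alone for the mature state and which activated macrophages also make. In the wider lists below, median differences between α-KG and vehicle were 0.99 for mature, 0.87 for cDC1, 0.86 for cDC2 and 0.61 for pDC genes.

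The levels were also set against the leukocyte genes of the same tumor, as FPKM per 100 FPKM of the 10 pan-leukocyte genes, a ratio chosen after the values were seen. Clec9a was at 0.115 to 0.228 with the combination and at or below 0.0938 in every other tumor, so that the 4 combination tumors stood apart on this scale too. Batf3 was at 0.285 to 0.742 in the combination and at 0.101 to 0.229 in α-KG tumors, but at 0.512 to 1.91 in vehicle tumors. Itgax was at 1.48 to 1.67 in the combination, above the 0.751 to 1.04 of α-KG, but within the 1.05 to 1.85 of anti-PD1, and overlapped the 0.365 to 1.61 of vehicle. In contrast, Xcr1 lay in a narrow range of 0.246 to 0.301 in the combination, below the 0.337 to 1.29 of vehicle tumors. Siglech was at 0.211 to 0.268 in the combination, within the 0.168 to 0.959 of vehicle. Fscn1 had its lowest ratios in combination tumors 1 and 3, at 0.676 and 0.756, against 4.6 to 23.7 in vehicle. The leukocyte sum ran from 45.87 to 1025 FPKM and Fscn1 itself only from 6.81 to 21.95 FPKM, so its ratio mostly follows that sum. The highest ratios of Xcr1 and Batf3 were in vehicle tumors 3 and 4, where the sum was 45.87 and 46.61 FPKM and both genes were under 1 FPKM. Ccl22 overlapped between all groups, with medians of 0.457 with vehicle, 0.597 with anti-PD1, 0.587 with α-KG and 0.318 with the combination.

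**Figure D3:**
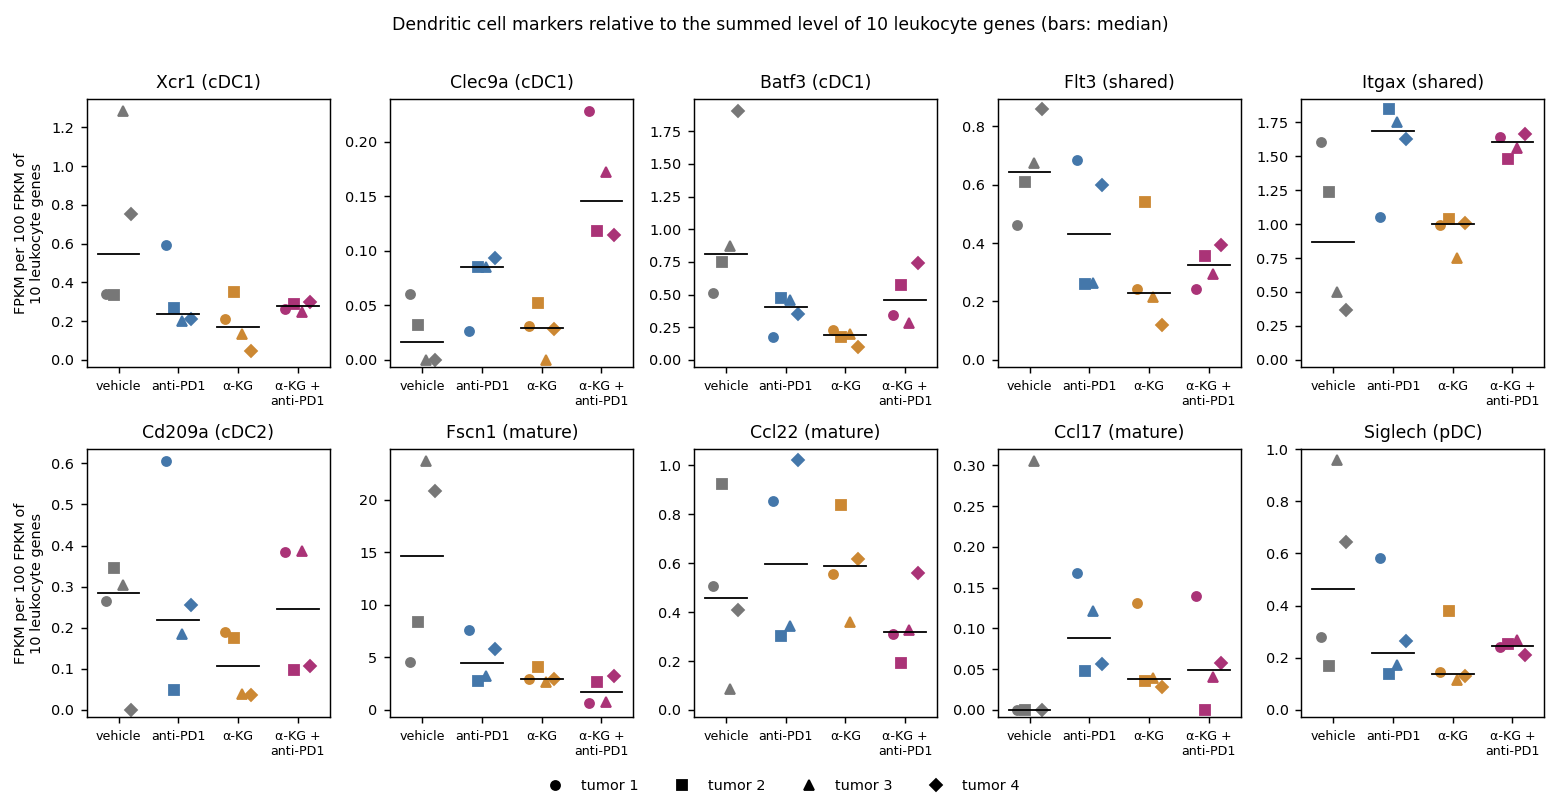
The 10 markers as FPKM per 100 FPKM of the summed level of 10 pan-leukocyte genes in the same tumor. Symbols give the tumor number and bars the median of each group. Clec9a is highest in the 4 combination tumors, at 0.115 or more, whereas Xcr1, Flt3 and Fscn1 of the combination lie below every vehicle tumor.

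The wider lists, a description by counts, held other genes known from each subset, and most also work in other cells. Their counts stand beside 34.9% of all genes tested called higher with the combination and 8.4% with α-KG alone. Of 11 tested cDC1 genes, 9 were higher and 1 lower in α-KG + anti-PD1 than in vehicle tumors, with a median difference of 0.80 against 0.15 over all genes tested. The largest rises were in Irf8 (3.30), a transcription factor of cDC1 that macrophages and B cells also use, Ifi205 (2.38), Naaa (2.29), a lipid amidase, and Rab7b (1.70). The gene that fell was Cd24a (-1.48, adjusted p = 0.00884, limma), a surface protein also made by neutrophils and red cell precursors, named after its value was seen. With α-KG alone, 4 of the 11 rose, namely Ifi205 (1.61), Rab7b (1.00), Wdfy4 (0.87), needed for cross-presentation, and Id2 (0.60), and the difference of Irf8 was 1.19 (adjusted p = 0.137, limma). The median of the 11 with α-KG alone was 0.87, against -0.04 over all genes tested, and 7 had an unadjusted p under 0.05 in limma.

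All 9 genes shared by conventional dendritic cells were higher in the combination than in vehicle, with a median difference of 2.40. The largest rises were in the MHC class II genes H2-Ab1 (3.86), H2-Eb1 (3.68) and H2-Aa (3.65) and the invariant chain Cd74 (3.64), which macrophages and B cells also express. With α-KG alone, 2 of the 9 rose, Csf2rb (3.17) and Csf2ra (1.61), the chains of the GM-CSF receptor, which myeloid cells share. The median of the 9 was then 1.61, and 6 had an unadjusted p under 0.05 in limma. Zbtb46, the transcription factor most used to tell conventional dendritic cells from macrophages, was at 1.35 to 2.59 FPKM with vehicle, 1.49 to 2.32 with anti-PD1, 1.26 to 2.04 with α-KG and 2.61 to 3.22 with the combination. Every combination tumor was therefore above every other tumor, and the differences were 0.49 (SE 0.14, adjusted p = 0.00969, limma) from vehicle, 0.59 (adjusted p = 0.00415) from α-KG and 0.44 (adjusted p = 0.0413) from anti-PD1, whereas that between α-KG and vehicle was -0.10 (adjusted p = 0.659). For Zbtb46, the call against vehicle was lost with tumor medians set equal (0.18, adjusted p = 0.183, limma), without combination tumors 1 and 3 (0.45, adjusted p = 0.067) and after quantile normalization, where the difference was -0.04 (adjusted p = 0.765). The call against anti-PD1 was lost in most alternatives, with adjusted p up to 0.426.

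Of 12 tested cDC2 genes, 10 rose in the combination against vehicle (median 0.99) and 6 with α-KG alone (median 0.86). The largest in the combination were Ltb (2.78) and Cd7 (2.63), which lymphocytes also express, and the lectins Clec4a1 (2.63) and Clec4a3 (2.44), which monocytes also express. With α-KG alone they were Clec4a1 (2.40), Clec4a3 (2.30), Ltb (1.66) and Tnip3 (0.89), an inhibitor of NF-kB signaling. Irf4, a transcription factor of cDC2, differed from vehicle by 0.71 with the combination (adjusted p = 0.00568, limma) and by 0.43 with α-KG alone (adjusted p = 0.118).

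All 16 tested genes of the mature state rose in the combination (median 1.20) and 9 did so with α-KG alone (median 0.99). In the combination the largest were Cd83 (2.07), a surface marker of maturation, Tnfrsf4 (2.02), better known from T cells, Traf1 (1.96) and Samsn1 (1.89). With α-KG alone they were Samsn1 (3.86), Traf1 (2.56), Cd80 (2.01), a ligand of CD28, and Relb (1.53), a subunit of NF-kB. Over all genes tested, the interaction was called lower for 3.13% and higher for 7.99%. It was called lower for 3 of the 16, as it was for Fscn1. These were Samsn1 (-2.95, adjusted p = 0.000847, limma), Cd80 (-1.71, adjusted p = 0.0024) and Ccr7 (-1.22, adjusted p = 0.0467), the receptor that guides mature dendritic cells to lymph nodes. It was called higher for Birc2 (0.90, adjusted p = 0.0321). The calls of Ccr7 and Birc2 were lost when any of several single tumors was left out, with adjusted p up to 0.102 for Ccr7 and 0.0681 for Birc2, as well as without the limit on low values (0.077 and 0.0553). The summed level of 8 neutrophil genes was 1091 to 2894 FPKM in α-KG tumors and at most 115.1 in each of the other groups, all 8 rose with α-KG alone and all 8 had an interaction called lower. The part of neutrophils in the values of Fscn1, Ccl22, Samsn1, Cd80 and Ccr7 was not tested.

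Of 13 tested pDC genes, 10 rose in the combination (median 1.15), led by Bst2 (1.79), Tlr9 (1.76), Irf7 (1.65) and Tlr7 (1.43), of which Bst2 and Irf7 are also induced by interferon in many cells. With α-KG alone 1 of the 13 passed, with a lower level, namely Cox6a2 (-1.75, adjusted p = 0.0194), which muscle also makes. The median of the 13 was then 0.61, and 6, with Cox6a2 among them, had an unadjusted p under 0.05 in limma. The summed level of 5 muscle genes was 49.7 to 644 FPKM in vehicle and 3.30 to 4.13 in α-KG tumors, and its part in Cox6a2 was not tested. Tcf4, the transcription factor that defines pDC, differed from vehicle by -0.03 with α-KG alone (adjusted p = 0.946, limma) and by 0.61 with the combination (adjusted p = 0.013). The latter call of Tcf4 was lost after quantile normalization (0.20, adjusted p = 0.212, limma), with tumor medians set equal (0.30, adjusted p = 0.0877), without combination tumors 1 and 3 (0.53, adjusted p = 0.0936) and without vehicle tumor 3 (0.0504) or 4 (0.0521). In these 2 vehicle tumors, with the lowest summed pan-leukocyte level, Tcf4 was still at 3.62 and 3.37 FPKM. The part of cells other than pDC in its level was not tested.

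The counts of the 5 lists were lower without combination tumors 1 and 3. Against vehicle, the combination was then higher in 6 of 11 cDC1, 7 of 9 shared, 7 of 12 cDC2, 11 of 16 mature and 7 of 13 pDC genes, and 23.6% of all genes tested were called higher. After quantile normalization of all 16 tumors the counts were 8, 8, 7, 12 and 7, and 17.4% of all genes were called higher. With α-KG alone, leaving out any 1 tumor gave 1 to 5 cDC1, 2 to 6 shared, 4 to 10 cDC2 and 7 to 10 mature genes higher than vehicle, and the median over all genes tested was -0.04. With anti-PD1 alone, 0 genes of each list passed, against 0.467% of all genes called higher. Leaving out any 1 tumor gave up to 2 cDC1, 6 shared, 4 cDC2, 1 mature and 1 pDC genes higher. Without combination tumors 1 and 3, which share only the estimate of spread with this comparison, 2, 5, 2, 2 and 1 were higher. In that fit 1 pDC gene was lower, and 2.86% of all genes were called higher. With all 16 tumors, the list medians were 0.44 for cDC1, 1.57 for shared, 0.64 for cDC2, 0.60 for mature and 0.32 for pDC genes, against 0.03 over all genes tested. An unadjusted p under 0.05 in limma was reached by 7 of 11, 7 of 9, 7 of 12, 9 of 16 and 4 of 13 of them.

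**Figure D4:**
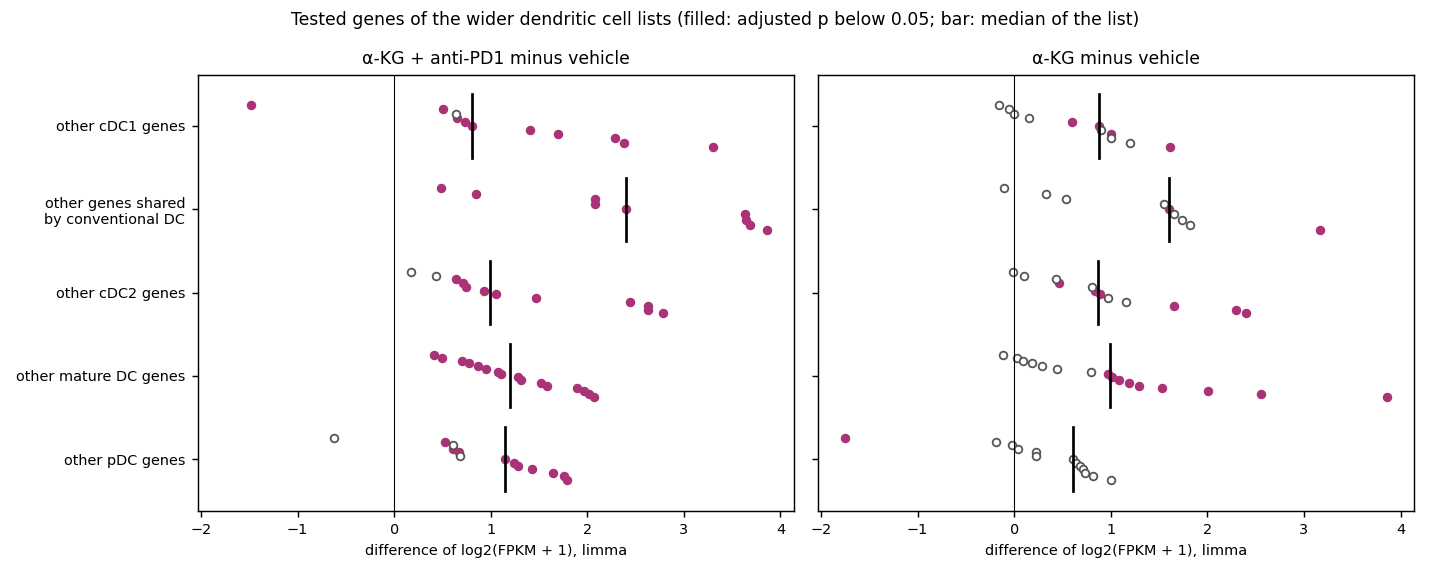
Differences from vehicle of every tested gene in 5 wider lists, for α-KG + anti-PD1 (left) and α-KG (right), in log2 units. Filled points passed at an adjusted p below 0.05 and the bar is the median of the list. All 9 shared genes and all 16 mature genes passed with the combination, against 2 and 9 with α-KG alone.

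The ligands of the markers were measured in the same tumors. Xcl1, the ligand of Xcr1 made by NK cells and CD8+ T cells, was at 0.82, 0.13, 0 and 0 FPKM in vehicle, at 0.8, 0.56, 1.75 and 0.89 with anti-PD1, at 0.5, 0.38, 0 and 0.64 with α-KG and at 12.56, 2, 13.19 and 0.92 with the combination. Like most markers it was highest in combination tumors 1 and 3. Its difference from vehicle was 2.27 (SE 0.51, adjusted p = 0.00262, limma) with the combination and 0.18 (adjusted p = 0.852) with α-KG. Flt3l, the ligand of Flt3, was at 0.54 to 1.48 FPKM in vehicle, at 0.73 to 2.3 with anti-PD1, at 1.31 to 1.7 with α-KG and at at 7.79, 4.15, 7.71 and 2.68 with the combination, with a difference from vehicle of 1.58 (adjusted p = 0.000519) with the combination and 0.24 (adjusted p = 0.579) with α-KG. Ccr4, the receptor of Ccl22 and Ccl17, was too low for the test, at 0.04 to 0.13 FPKM with vehicle, 0.09 to 0.17 with anti-PD1, 0.09 to 0.82 with α-KG and 0.13 to 0.7 with the combination. Among other chemokines, Ccl5 (3.89), Cxcl9 (3.45), Ccl3 (3.02) and Ccl4 (2.98) rose with the combination, and Ccl3 (5.77) and Ccl4 (5.52) also with α-KG alone. With anti-PD1 alone, Ccl3 (1.44, adjusted p = 0.0463, limma) and Ccl4 (1.655, adjusted p = 0.0441) were called higher too. Leaving out any 1 tumor gave 0 to 3 ligand and receptor genes called higher with anti-PD1.

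Markers of other cells also differed between the groups. In the combination against vehicle, where 34.9% of all genes tested were called higher, all 9 tested T-cell genes, all 5 tested NK genes, all 6 monocyte genes and all 11 tested macrophage genes were higher, as were all 10 pan-leukocyte genes. With α-KG alone, 6 of 6 monocyte, 7 of 11 macrophage and 10 of 10 pan-leukocyte genes were higher, while 0 of 9 T-cell and 0 of 5 NK genes passed limma's test and 0 of either had an unadjusted p under 0.05. Of all genes tested, 8.4% were called higher there. With anti-PD1 alone, 0 of 6, 3 of 11, 1 of 10, 0 of 9 and 0 of 5 of these genes passed, against 0.467% of all genes called higher. An unadjusted p under 0.05 in limma was reached by 5, 11, 10, 3 and 1. The medians were 1.12 for monocyte, 1.65 for macrophage and 1.53 for pan-leukocyte genes. Of the 10 pan-leukocyte genes, 0 to 8 were called higher with anti-PD1 leaving out any 1 tumor. All 10 were called higher without combination tumors 1 and 3, where 2.86% of all genes were. Neutrophil genes were higher in the combination than in vehicle for 2 of 8, and 0 of 2 tested B-cell and 0 of 4 tested fibroblast genes passed limma's test, with 0 at an unadjusted p under 0.05. All 7 red-cell genes were lower in the combination than in vehicle, with a median difference of -2.95, and their summed level was 10890 to 11750 FPKM there and 23320 FPKM or more in every other tumor. The part of the red-cell genes in the scaling of FPKM was not tested. The summed level of 12 macrophage genes was 137.7 to 626.0 FPKM with vehicle, 657.5 to 1133 with anti-PD1, 1031 to 1358 with α-KG and 957.8 to 2461 with the combination. That of 9 T-cell genes was 1.25 to 11.4, 11.1 to 37.0, 6.80 to 46.0 and 27.1 to 242.6 FPKM in the same order. Cd207 of Langerhans cells was at 0 in 15 of the 16 tumors. The part of these cells in Itgax, Batf3, Ccl22 and the other shared markers was not tested.

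Deviations from the group means were compared over the 16 tumors, as a description without a test. The tumors' leukocyte content enters all of them. Among the markers, Xcr1 went most closely with Siglech (Pearson's r = 0.87), and Cd209a with Siglech (0.85) and Clec9a (0.84). Fscn1 ran against Batf3 (-0.59) and Itgax (-0.50). Of the other tested genes, those nearest to Xcr1 were Camk4 (r = 0.93), H2-DMb2 (0.92) and S1pr4 (0.91), and those nearest to Cd209a were Icos (0.93), Kmo (0.92) and Cyp27a1 (0.92). Ccl22 was nearest to Cd300lb (0.86), Mgl2 (0.85) and Susd3 (0.85), and Siglech to Pced1b (0.93), Camk4 (0.92) and Bcl11b (0.91).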

How the data were processed

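RNA of 16 tumors was captured with oligo-dT, made into strand-marked libraries and read on the DNBSEQ platform. The table the authors deposited holds FPKM values with 2 decimals, 1 column per tumor, all of which were used. The submitters' processing notes name HISAT, Bowtie2 and mm10 without versions, and the program behind the FPKM values is not given in the sources used here. Sums per tumor were 514180 to 527812 FPKM in the combination and 549740 to 654772 FPKM in the other groups, without overlap. The depth is unknown, since 37.2% of 188 low values lay within 0.15 of a whole step, where chance gives 30%, and values under 1 FPKM are the least precise.

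The 12850 genes that reached 0.5 FPKM in 4 or more tumors were fitted on log2(FPKM + 1), 1 mean per group, with limma 3.58.1 (trend) in R 4.3.3, called at adjusted p under 0.05 and tested on simulated data. A pseudocount of 1 understates changes of low genes. Exact tests used scipy 1.17.1. The markers and lists were chosen with earlier results of these data known. Text names the 10 markers, at most 4 genes per list by size of change among those called, defining genes not called, and the 3 genes nearest to 4 markers. Zbtb46, Irf4, Tcf4, Xcl1 and Flt3l were also given where they were called. A result on 1 further listed gene is not reported here. The 4 tumors of a group are described as independent.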

Additional observations from a re-analysis of the deposited data

Results flagged for a closer look

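Among the 40 sets of 4 tumors, 10 markers in 4 groups, 4 held a tumor far from the other 3 of its group, where chance gives about 1 in 20. Batf3 was at 0.4 FPKM in vehicle tumor 3, the lowest of its group, which otherwise ran from 0.89 to 0.93 FPKM. Ccl17 was at 0.14 FPKM in vehicle tumor 3, with the other 3 vehicle tumors at 0. With 3 equal values any different value is flagged, so the chance rate of 1 in 20 does not apply to this set. Ccl17 was at 0.68 FPKM in α-KG tumor 1, with the others at 0.16 to 0.22 FPKM. Siglech was at 2.02 FPKM in α-KG tumor 2, with the others at 0.64 to 0.76 FPKM, and this tumor was also the highest of its group in Xcr1, Clec9a, Flt3, Fscn1 and Ccl22. Its summed level of 9 T-cell genes was 46.02 FPKM, against 6.8 to 10.99 in the other α-KG tumors. That of 6 B-cell genes was 34.3 FPKM, against 4.6 to 9.99, while its pan-leukocyte sum of 534.7 FPKM was within the range of the others. The part of lymphocytes in these values was not tested.

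The effect of anti-PD1 on Fscn1 differed between tumors with and without α-KG. The interaction was -1.20 (SE 0.25, adjusted p = 0.00824, limma over all genes), and Fscn1 was lower in 4 of 4 α-KG + anti-PD1 tumors than in every α-KG tumor.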

How the results depend on the processing

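Over all alternatives, 1336 values of single markers were compared with those above. Of these, 1281 kept their side of the threshold, 36 no longer passed, 19 newly passed and 0 passed with the opposite sign. Of the 1281, 32 changed sign while passing in neither fit, the largest at 0.58.

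In α-KG + anti-PD1 against vehicle, 7 markers passed, against 2 after quantile normalization, 3 with tumor medians set equal (with Fscn1, lower, among them) and 2 without combination tumors 1 and 3, an alternative chosen after seeing the data. In anti-PD1 against vehicle, 0 passed, against 1 without those tumors and 0 to 1 leaving out a tumor. In α-KG + anti-PD1 against anti-PD1, 1 passed, against 2 with medians set equal, 3 with FPKM sums set equal, 0 with the 2 groups fitted alone, 0 without combination tumors 1 and 3, and 0 to 4 leaving out a tumor. With medians set equal, these were Batf3, higher, and Fscn1, lower. After quantile normalization Fscn1 passed as lower in place of Batf3. In α-KG + anti-PD1 against α-KG, 2 passed, against 2 to 4 leaving out a tumor, with 4 without combination tumor 4. The interaction passed for 1 marker, against 2 after quantile normalization and 2 without combination tumors 1 and 3, the second being Ccl22. With the replicate number as a block, the counts were 7, 0, 3, 1, 2, 0 and 1 in the 6 comparisons and the interaction, as without the block. Same-numbered tumors of different groups deviated with r from -0.642 to 0.411 (median 0.00689), so the numbers were not taken as pairs.

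Under every alternative run, Itgax and Batf3 passed in α-KG + anti-PD1 against vehicle (adjusted p up to 0.0156 and 0.0215), Batf3 in α-KG + anti-PD1 against α-KG (up to 0.0428), Ccl22 and Fscn1 in α-KG against vehicle (up to 0.0225 and 0.0377), and Fscn1 in the interaction (-1.43 to -1.01, adjusted p up to 0.0304). Where a call was lost, the cause was not tested. The unknown depth limits most what can be said of Clec9a, Ccl17 and other values under 1 FPKM.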
